A study of Mus musculus with 8 samples.

Results

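Il33, the gene of the alarmin cytokine interleukin 33, and 6 receptor genes were followed across mouse primary myotubes exposed to 3 related cytokines. The 7 genes were chosen by symbol: Il33, Il1rl1, Il1rap, Il1r1, Il4ra, Il13ra1 and Il2rg, out of 53647 genes in the count tables. They were proposed with results of these data already known, so their levels and changes are given as a description and no p-value is given for them. In brief, Il33, Il4ra and Il13ra1 were higher with oncostatin M (OSM) and with leukaemia inhibitory factor (LIF) than in control myotubes, Il33 by 10.8-fold with OSM. Il2rg was lower with OSM, Il1r1 was higher with LIF, Il1rap passed in no comparison of this fit, and Il1rl1 had between 5 and 23 counts per library.

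All groups were wild-type (WT) primary myotubes, the multinucleated fibres that fused myoblasts form in a dish. The myoblasts had been taken from the limbs of 2 to 3 day old pups and differentiated in 5% horse serum. Treated myotubes received 250 ng/ml of OSM, of LIF or of interleukin 6 (IL6) during 48 h, controls received none of these, and harvest was 72 h after differentiation. Each of the 4 groups (control, IL6, LIF, OSM) has 2 libraries. No strain, sex or control vehicle is named, and nothing says whether the 2 libraries of a group came from separate animals or dishes, so a p-value measures only the spread between these libraries.

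IL-33 is a nuclear cytokine of the IL-1 family that stromal and epithelial cells release when damaged. It binds ST2, the product of Il1rl1, which then recruits IL-1RAcP, the product of Il1rap, and signals through MyD88 to NF-kB. Il1r1 encodes the receptor for IL-1, which uses the same partner. IL-4 and IL-13 are signals of type 2 immunity: the IL-4 receptor alpha chain (Il4ra) pairs with the common gamma chain (Il2rg) in the type I receptor, which binds IL-4, or with the IL-13 receptor alpha 1 chain (Il13ra1) in the type II receptor, which binds IL-4 and IL-13, and both signal through JAK kinases to STAT6. In muscle, IL-33 is known as a product of stromal progenitors that sustains regulatory T cells, and IL-4 as a factor in myoblast fusion.

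The promoter sequences of Il33, Il4ra and Il13ra1 are shown because these are the 3 genes that were higher with both OSM and LIF. Each is the 250 bases before an annotated start site, from RefSeq on build GRCm38.p6, written 5′ to 3′ on the gene's strand, which is the plus strand for all 3 genes. Il33 has 2 start sites, with windows at chr19:29924863-29925112 and chr19:29945540-29945789. The Il4ra window lies at chr7:125552021-125552270 and the Il13ra1 window at chrX:36111858-36112107. Capitals mark matches to the motifs described after the sequences.

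Il33 upstream start: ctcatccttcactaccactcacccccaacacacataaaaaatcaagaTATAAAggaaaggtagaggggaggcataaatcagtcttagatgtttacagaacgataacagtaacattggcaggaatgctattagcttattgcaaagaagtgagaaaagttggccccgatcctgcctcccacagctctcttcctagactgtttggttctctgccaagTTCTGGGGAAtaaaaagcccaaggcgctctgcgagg
Il33 downstream start: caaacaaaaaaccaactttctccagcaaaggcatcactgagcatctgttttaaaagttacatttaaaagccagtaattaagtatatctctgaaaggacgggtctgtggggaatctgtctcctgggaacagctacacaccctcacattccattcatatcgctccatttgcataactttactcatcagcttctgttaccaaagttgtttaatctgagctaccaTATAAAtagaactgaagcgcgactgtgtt
Il4ra: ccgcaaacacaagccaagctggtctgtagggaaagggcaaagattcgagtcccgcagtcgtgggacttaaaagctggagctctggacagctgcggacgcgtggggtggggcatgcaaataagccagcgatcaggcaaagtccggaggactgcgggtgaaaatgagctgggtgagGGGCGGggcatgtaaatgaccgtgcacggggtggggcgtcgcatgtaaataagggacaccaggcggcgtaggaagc
Il13ra1: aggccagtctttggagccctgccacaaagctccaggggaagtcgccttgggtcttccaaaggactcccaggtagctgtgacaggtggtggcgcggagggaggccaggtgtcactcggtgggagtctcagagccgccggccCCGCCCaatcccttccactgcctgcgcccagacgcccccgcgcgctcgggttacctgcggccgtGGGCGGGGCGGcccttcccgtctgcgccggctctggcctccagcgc

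Motifs were searched on both strands: TTCNNNGAA for STAT factors, TTC and GAA parted by 4 bases of any kind for STAT6, TGANTCA for AP-1, TATAAA for the TATA box and GGGCGG for SP1 and Kruppel-like factors. The upstream Il33 window holds TTCTGGGGAA, a match to the STAT6 pattern, at position −36 from the start site, and TATAAA at −203. The downstream Il33 window holds TATAAA at −29. Il4ra holds 1 GGGCGG, and Il13ra1 holds 3 matches to it, of which 1 reads on the other strand and the other 2 overlap by a base. No STAT or AP-1 match was found in the 10 windows of the 7 genes, against 7.01% and 6.75% of all 32817 promoter windows. A STAT6 match was found in 1 of the 10 windows (5.85% of all), TATAAA in 2 (12.4%) and GGGCGG in 5 (32.7%). GC content set the windows apart, at 45.2% and 39.6% for Il33, 59.6% for Il4ra and 70.8% for Il13ra1, beside a median of 52.4% over all windows. A match is only a description of the letters, and gene counts do not separate the Il33 start sites.

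Libraries were of even depth, with 29482077 to 30025471 counts assigned to genes and 21358 to 21831 genes with a count. No 2 replicates matched within counting error, since the chi-square per gene between them ran from 3.05 for LIF to 12.3 for IL6. The cultures carried the markers of their label, as the 10 myotube markers summed to 24580 to 25650 CPM (counts scaled to a common library size) in control, 21250 to 24060 with IL6, 22030 to 23310 with LIF and 21420 to 21560 with OSM. Of these 10, Myog and Myh8 were called lower with OSM (log2 −0.53 and −0.20) and with LIF (−0.43 and −0.24), and none higher. Markers of cells that are known for IL-33 or its receptors were also read. Summed over 10 fibroblast or fibro-adipogenic progenitor markers, the level was 1703 to 1783 CPM in control, 1581 to 1774 with IL6, 2075 to 2133 with LIF and 2159 to 2270 with OSM, although Lum was at 0 in all libraries and 3 of the 10 never exceeded 10 counts. Col3a1 made up most of this sum, at a mean of 1432 CPM in control, 1850 with LIF and 2017 with OSM. Of the 6 fibroblast markers tested, 3 were higher (Pdgfra, Ly6a and Col3a1) and 1 lower (Cd34) with OSM. Col1a1 went from a mean of 239.1 CPM in control to 78.4 with OSM and was not called. Myoblast markers summed to 958.7 to 987.9 CPM in control and 1125 to 1154 CPM with OSM, with 3 of 6 higher. Of these sums, Itga7 made up a mean of 655 and 778.3 CPM. The 9 macrophage markers summed to 2.95 to 3.12 CPM in control and 5.33 to 5.61 with OSM, with 6 of 9 never above 10 counts and C1qb at 0. Cd68, the 1 of them called higher with OSM, went from a mean of 1.98 to 4.05 CPM. Lymphocyte markers summed to 3.98 to 4.43 CPM in control and 4 to 4.63 with OSM, and 9 of 10 never exceeded 10 counts. All 10 mast cell or eosinophil markers stayed at or under 10 counts. Endothelial markers went from 9.67 to 10.3 CPM in control to 13.0 to 13.7 with OSM, with 1 of 4 tested called higher. Smooth muscle or pericyte markers summed to 615.5 to 736.5 CPM in control and 813.4 to 820.7 with OSM, of which Acta2 made up a mean of 580.8 and 719.8. Acta2 rose with OSM (log2 0.31), and the pericyte marker Rgs5 fell (−1.92) on 5 to 31 counts in these groups. The part of these other cells in the results was not tested, and in bulk RNA fewer cells of a type and less RNA per cell cannot be told apart.

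Il33 (ENSMUSG00000024810) showed the widest range of the 7 genes. It had 274 and 289 counts in the control libraries, 623 and 405 with IL6, 868 and 818 with LIF, and 3147 and 2962 with OSM. No library of one group overlapped another group, and the order was control, IL6, LIF, OSM. As a ratio, the 2 IL6 libraries lay further apart than those of any other group. Scaled to library size, the level went from 9.55 ± 0.214 CPM in control (SD, n = 2) to 17.1 ± 4.91 with IL6, 28.3 ± 1.27 with LIF and 103.5 ± 5.84 with OSM. The fitted log2 change against control was 3.44 (SE 0.15) with OSM, 1.57 (SE 0.16) with LIF and 0.84 (SE 0.16) with IL6. Here and below, a gene passed when its adjusted p over all 15603 genes was under 0.05 in edgeR's quasi-likelihood test. The OSM and LIF changes passed and the IL6 change did not. OSM exceeded LIF by 1.87 (SE 0.14) and IL6 by 2.59 (SE 0.14), and both differences passed. LIF exceeded IL6 by 0.72 (SE 0.15), which passed in this fit. That call was lost in 8 of 14 alternative settings, among them leaving out either control library (0.72 and 0.73), either LIF library (0.68 and 0.77) or either OSM library (0.73 each). The difference itself moved most with the IL6 libraries, to 1.05 when IL6 replicate 1 was left out and 0.46 when replicate 2 was. The change of IL6 against control was 0.52 and 1.11 in these fits, and passed in the latter.

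**Figure D1:**
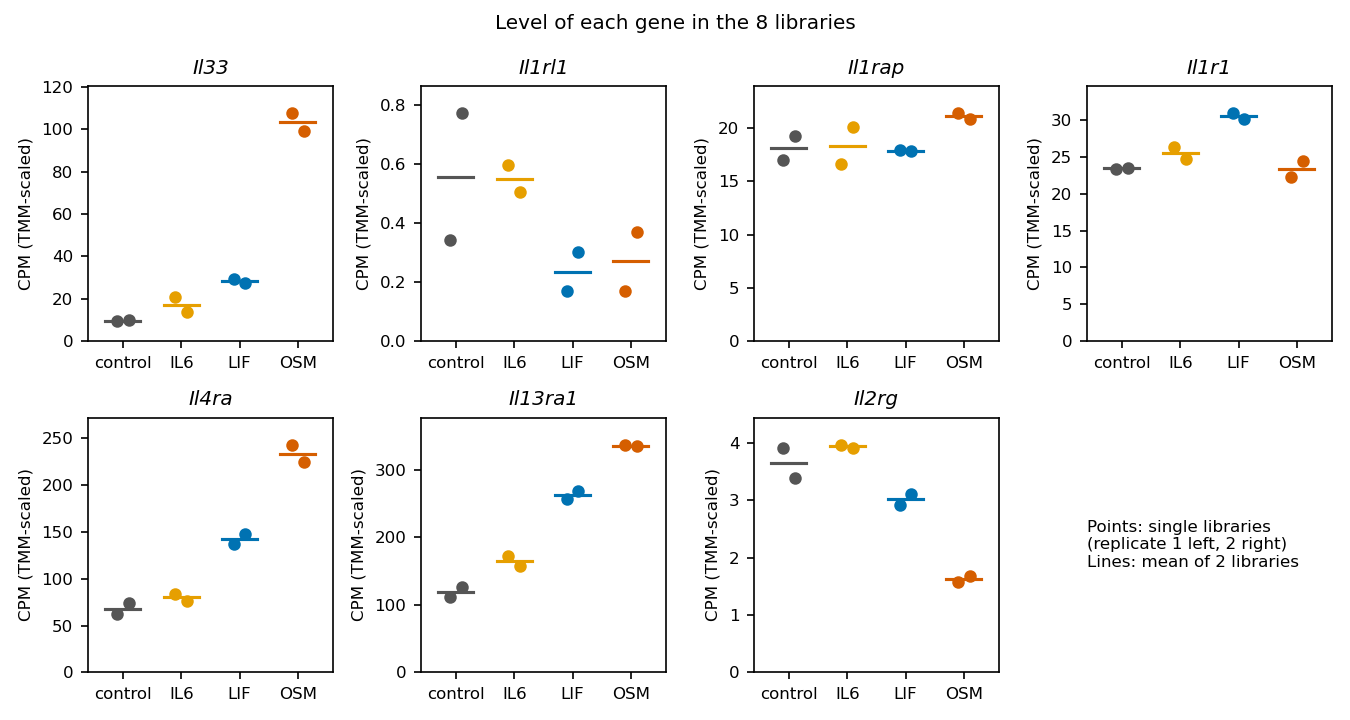
Level of each of the 7 genes in CPM (TMM-scaled) on the y axis and the 4 groups on the x axis, where each point is 1 library and each line the mean of 2. Il33 ran from 9.55 CPM (control) to 103.5 CPM (OSM), Il4ra and Il13ra1 climbed in the same order of groups, Il2rg was lowest with OSM, and the libraries of Il1rap and Il1rl1 overlapped between several groups.

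The receptor side of IL-33 looked different. Il1rl1 (ENSMUSG00000026069) encodes ST2, the IL-33 binding chain. Its counts were 10 and 23 in control, 18 and 15 with IL6, 5 and 9 with LIF, and 5 and 11 with OSM. These are few reads, the control libraries differ more than 2-fold, and the OSM libraries overlap the controls. Its log2 change was −1.03 (SE 0.54) with OSM and −1.24 (SE 0.56) with LIF, and neither passed. Both values moved with single libraries. The OSM value ran from −0.33 without control replicate 2 to −1.68 without OSM replicate 2, and the LIF value from −0.53 without control replicate 2 to −1.71 without LIF replicate 2.

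Il1rap (ENSMUSG00000022514), the partner chain shared by the IL-33 and IL-1 receptors, was nearly level. Counts were 496 and 573 in control, 502 and 596 with IL6, 534 and 532 with LIF, and 626 and 621 with OSM. Only the OSM libraries lay above all others, by a small margin. The log2 change was 0.22 (SE 0.11) with OSM, −0.02 (SE 0.11) with LIF and 0.02 (SE 0.11) with IL6, and none passed. Between cytokines it passed in 2 alternative settings: for OSM against LIF in a fit of those groups alone, and for OSM against IL6 without IL6 replicate 2 (0.35).

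Il1r1 (ENSMUSG00000026072), the IL-1 receptor, was the 1 gene of the 7 highest with LIF. It had 682 and 701 counts in control, 797 and 735 with IL6, 920 and 900 with LIF, and 651 and 729 with OSM. Both LIF libraries lay above the other 6, and the OSM libraries lay on either side of the controls. The log2 change was 0.38 (SE 0.08) with LIF, which passed, and −0.01 (SE 0.08) with OSM, which did not. In the direct comparison OSM was below LIF by 0.39 on the log2 scale (fitted −0.39, SE 0.08), which passed. The LIF call was lost without LIF replicate 1 (0.36) or LIF replicate 2 (0.40). The call of OSM against LIF was lost without LIF replicate 1 (−0.37), LIF replicate 2 (−0.40) or OSM replicate 1 (−0.32).

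Il4ra (ENSMUSG00000030748) encodes the chain common to both receptors for IL-4. It had 1829 and 2192 counts in control, 2521 and 2270 with IL6, 4070 and 4397 with LIF, and 7103 and 6684 with OSM. The groups did not overlap and stood in the order control, IL6, LIF, OSM. Levels were 68.1 ± 7.67 CPM in control, 79.9 ± 4.83 with IL6, 142 ± 7.35 with LIF and 233.5 ± 13.2 with OSM (SD, n = 2). Against control, LIF gave 2.08-fold and OSM 3.43-fold the CPM, with log2 changes of 1.06 (SE 0.08) and 1.78 (SE 0.08) that both passed. With IL6 the change was 0.23 (SE 0.08) and did not pass. OSM exceeded LIF by 0.72 (SE 0.08) and LIF exceeded IL6 by 0.83 (SE 0.08), and both passed in all 14 alternative settings.

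Il13ra1 (ENSMUSG00000017057) encodes the chain that completes the type II receptor. Its counts were 3279 and 3753 in control, 5211 and 4673 with IL6, 7661 and 8042 with LIF, and 9861 and 9979 with OSM. It was the most highly counted of the 7 genes, and the groups again did not overlap. Levels were 119.2 ± 9.55 CPM in control, 164.9 ± 10.4 with IL6, 263.4 ± 8.28 with LIF and 335.9 ± 1.75 with OSM (SD, n = 2). The log2 change was 1.49 (SE 0.07) with OSM and 1.14 (SE 0.07) with LIF, and both passed. With IL6 it was 0.47 (SE 0.07), which did not pass in this fit. OSM exceeded LIF by 0.35 (SE 0.07), which passed, though the call was lost without LIF replicate 1 (0.32), OSM replicate 1 (0.35) or OSM replicate 2 (0.36).

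Il2rg (ENSMUSG00000031304), the common gamma chain of the type I receptor, moved the other way. It had 114 and 101 counts in control, 120 and 116 with IL6, 87 and 93 with LIF, and 46 and 50 with OSM. Both OSM libraries were the lowest, and the LIF libraries lay between them and the controls. The level went from 3.65 ± 0.367 CPM in control to 1.63 ± 0.0736 with OSM (SD, n = 2), 0.445 of control. The log2 change with OSM was −1.16 (SE 0.19) and passed, while those with LIF (−0.27, SE 0.18) and IL6 (0.11, SE 0.17) did not. Against LIF, OSM was lower by a fitted −0.89 (SE 0.20), which passed. That call was lost without LIF replicate 1 (−0.94) or 2 (−0.85) and without OSM replicate 1 (−0.84) or 2 (−0.93). In the GENCODE M21 annotation, 30.5% of its exon bases overlap Gm20489 on the same strand, a gene with 0 counts in all 8 libraries. Of the 50-base stretches of its longest transcript, 42.0% also occur in transcripts of other genes. The 0 counts of Gm20489 do not tell whether reads from the shared bases were counted for Il2rg.

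Counted by comparison, all 7 genes passed the filter on low counts. With OSM against control 3 were called higher and 1 lower, where 10.8% of all genes were called higher and 10.6% lower. With LIF 4 were called higher and 0 lower (4.20% and 3.46% of all genes). With IL6, edgeR called 0 of the 7 and 0% of all genes. At an unadjusted p under 0.05 there were 3 of the 7 and 795 of all genes, and the DESeq2 Wald test called 19 genes, Il33 and Il13ra1 among them. Without IL6 replicate 2 edgeR also called these 2, and without control replicate 2 it called Il13ra1. The median log2 change over the 7 was 0.22 with OSM, 0.38 with LIF and 0.12 with IL6, beside medians over all genes of −0.0028, −0.0079 and 0.00062. All 3 comparisons use the same control libraries.

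Between cytokines, OSM against LIF called 3 of the 7 higher and 2 lower (4.01% and 4.04% of all genes). That count of 5 fell to 2 without LIF replicate 1 or OSM replicate 1 and to 3 without LIF replicate 2 or OSM replicate 2. OSM against IL6 called 3 higher and 1 lower (8.02% and 7.52%), and LIF against IL6 called 3 higher and 0 lower (1.76% and 1.02%). The genes called higher in all 3 were Il33, Il4ra and Il13ra1. With 1 library left out the calls over all genes moved too, from 434 to between 82 and 739 for LIF against IL6, lowest without LIF replicate 1 (82) or 2 (96) and highest without IL6 replicate 2 (739). For OSM against LIF 1256 became as few as 437, without LIF replicate 1, and for LIF against control 1195 became as few as 316, without LIF replicate 2. These shares of all genes are given as background only, since the 7 genes were chosen with results known.

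**Figure D2:**
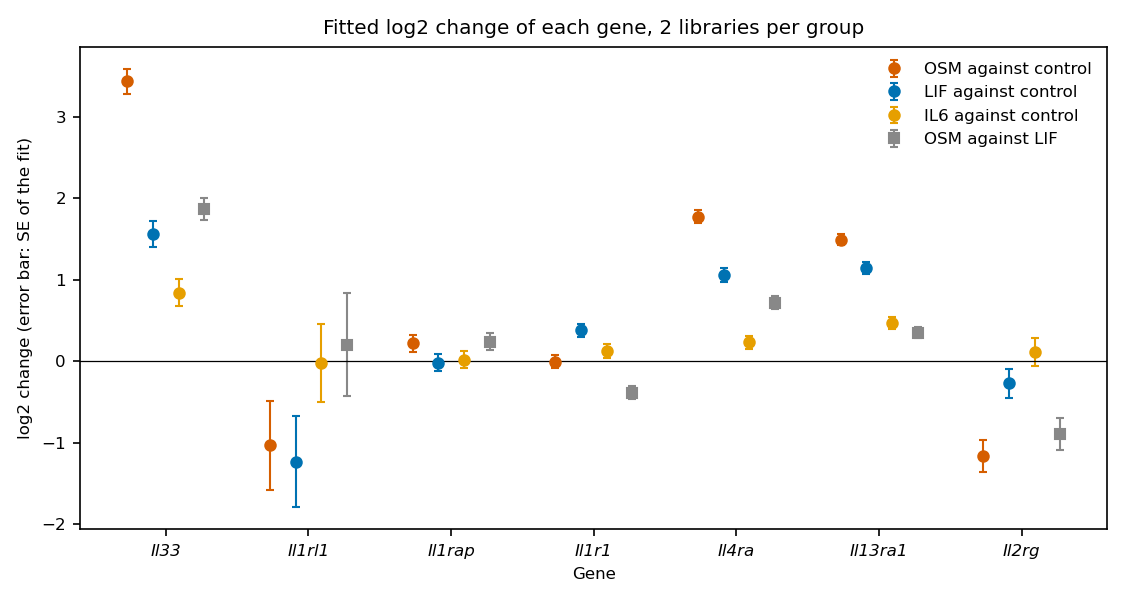
Fitted log2 change (y axis, error bars are the SE of the fit) of each gene (x axis) for OSM, LIF and IL6 against control and for OSM against LIF, with 2 libraries per group. Il33, Il4ra and Il13ra1 lie above 0 in the order OSM, LIF, IL6, Il2rg lies at −1.16 with OSM, and the error bars of Il1rl1 are the widest.

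Levels of different genes can be compared only per length. On the scale of CPM per kilobase of union exons, Il13ra1 was the highest of the 7 in all 8 libraries, at 32.1 ± 2.59 in control and 90.5 ± 0.453 with OSM (SD, n = 2). Il4ra was next in control, at 11.4 ± 1.28, and stood at 38.9 ± 2.19 with OSM. Il33 was at 3.31 ± 0.0743 in control, below Il1r1 at 3.69 ± 0.0156, and at 35.9 ± 2.02 with OSM, where its mean ± SD overlapped that of Il4ra. Il1rap (1.60 ± 0.139) and Il2rg (1.53 ± 0.154) did not differ beyond their spread in control, an order that depends on the length used, since with the longest transcript Il1rap stood at 4.01 and Il2rg at 2.19. Il1rl1 was lowest in all 8 libraries, at 0.0809 ± 0.0440 in control.

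**Figure D3:**
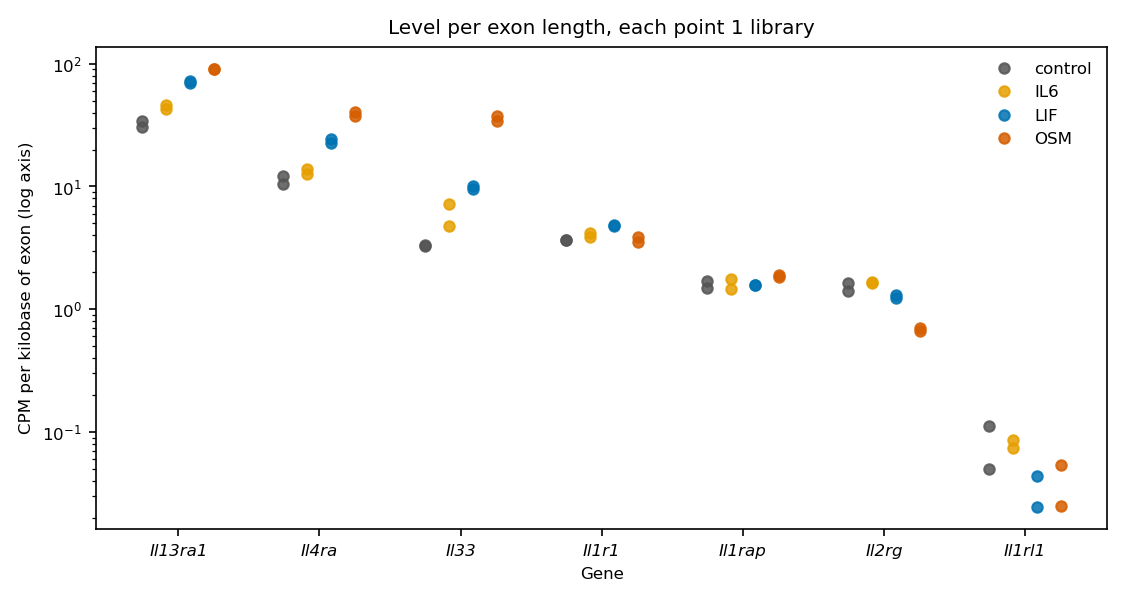
Level per exon length, in CPM per kilobase on a log axis, for the 7 genes ordered by their level with OSM on the x axis, where each point is 1 library. Il13ra1 is highest and Il1rl1 lowest in all libraries, and Il33 moves from just below Il1r1 in control to just below Il4ra with OSM.

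These levels set the subunits side by side. Per length, Il13ra1 exceeded Il2rg, the alternative partner of Il4ra, by 18.5 and 23.9 times in the control libraries, 27.9 and 25.9 with IL6, 56.6 and 55.6 with LIF, and 137.8 and 128.3 with OSM. The ratio of type II to type I partner transcripts was thus highest with OSM, with no overlap between groups. Its size depends on the length used, since with the longest transcript Il2rg stood at 2.19 in control and 0.973 with OSM. On union exons Il2rg stood at 1.53 and 0.681, while the length of Il13ra1 is the same on both scales. Of the exon bases of Il2rg, 30.5% overlap Gm20489 on the same strand, and both lengths were used without removing shared bases. The effect of this on the level of Il2rg and on the size of these ratios was not tested. The ratio of Il13ra1 to Il4ra stayed narrower, from 2.25 and 2.41 with OSM to 3.34 and 3.33 with IL6. The IL-1 receptor Il1r1 exceeded the IL-33 receptor Il1rl1 by 33.0 to 199.4 times, on only 5 to 23 counts of Il1rl1 per library. The 2 control libraries alone gave 73.9 and 33.0, so differences between groups are not read from this ratio. Transcript ratios are not ratios of receptor proteins at the cell surface.

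Genes with the most similar profile were found by the root mean square difference of centred log2 CPM over the 8 libraries, for each gene whose group means spanned at least 1 on the log2 scale. Closest to Il33 were Ccbe1 (0.20), Igfbp3 (0.26) and Htr2a (0.27), where the median over all genes compared was 1.28. Their log2 changes with OSM were 3.26, 2.77 and 3.26. Closest to Il4ra were Sulf1 (0.088), Vegfd (0.098) and Rdh10 (0.104), with changes of 1.92, 1.84 and 1.96. Closest to Il13ra1 were Glis3 (0.072), Cp (0.085) and Mxd1 (0.103), with changes of 1.46, 1.47 and 1.51. Closest to Il2rg were Cdca7 (0.098), Pola1 (0.099) and Oip5 (0.106), with changes of −1.19, −1.25 and −1.15. For Il1rl1 the nearest were Sorl1 (0.31), Car8 (0.33) and Rexo5 (0.34), a likeness that rests on at most 23 counts. Il1rap and Il1r1 spanned 0.24 and 0.39 and were not matched.

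Among the ligands of these receptors other than Il33, those of the IL-4, IL-13 and IL-1 receptors had few counts. Il13 had 0 counts in all 8 libraries, and Il4 had 1 count in OSM replicate 2 and 0 in the others. A count of 0 allows up to 3 counts, or 0.099 to 0.103 CPM, for counting error only. Il1a had at most 3 counts and Il1b at most 6. Among the other IL-1 family ligands, Il18 had 59 to 95 counts and a log2 change of −0.18 with OSM (adjusted p 0.583). Among type 2 and common gamma chain ligands, Tslp, an epithelial cytokine of type 2 immunity, had 81 to 113 counts and a change of 0.23 (adjusted p 0.409). Of the 5 genes of these lists that were tested (Il18, Il7, Il15, Tslp and Il18bp, which encodes a binding protein of IL-18), 0 passed with OSM or LIF.

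Further genes of the pathways were read from 8 lists of 102 symbols, of which 63 were tested. These lists too were chosen with earlier results of these data known. Their shares and adjusted p-values are therefore a description, and the shares of all genes are background only. With OSM 19 of the 63 were called higher and 1 lower, 30.2% and 1.59%, beside 10.8% and 10.6% of all genes. The count of 20 was 11 without OSM replicate 1 or 2. With LIF 10 were called higher and 1 lower, 15.9% and 1.59%, beside 4.20% and 3.46%. That count of 11 was 7 without control replicate 2, 4 without LIF replicate 1 and 3 without LIF replicate 2. With IL6, edgeR called 0 of the 63, with 6 at an unadjusted p under 0.05, and DESeq2 also called 0. Without IL6 replicate 2, a fit with 1 IL6 library, edgeR did call some of the 63. The median change over the 63 was 0.18 with OSM and 0.09 with LIF. All adjusted p-values are from edgeR's quasi-likelihood test over all genes.

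Among the other IL-1 receptor family members 3 of 7 were tested and 0 passed with OSM or LIF. On the path from MyD88 to NF-kB, 4 of 19 genes rose with OSM and 3 with LIF, and 0 fell. With OSM 21.05% of this list was called, beside 10.8% of all genes called higher and 10.6% lower. With LIF 15.79% was called, beside 4.20% and 3.46%. The same shares of all genes apply to the lists that follow. Nfkbia, the NF-kB inhibitor that NF-kB itself induces, had an OSM rise of 0.67 (SE 0.10, adjusted p 0.000225) and a LIF rise of 0.37 (adjusted p 0.0343). Rela, the p65 subunit, had an OSM rise of 0.55 (SE 0.08, adjusted p 0.000178) and a LIF rise of 0.37 (adjusted p 0.00989). The OSM calls of both held in all 14 alternative settings (highest adjusted p 0.00717 and 0.00569). The kinase gene Irak4 rose with OSM by 0.71 (adjusted p 0.00780), Ikbkg by 0.25 (adjusted p 0.0188), and Irak2 rose with LIF by 0.42 (adjusted p 0.0106). With 1 library left out, Irak4 did not pass without control replicate 2 (0.59) or OSM replicate 2 (0.67), and Ikbkg without control replicate 1 (0.20), OSM replicate 1 (0.23) or OSM replicate 2 (0.28). Irak2 did not pass without control replicate 2 (0.37) or either LIF library (0.36 and 0.48). The LIF call of Rela was lost without either LIF library (0.36 and 0.39), and that of Nfkbia without LIF replicate 2 (0.25), either control (0.42 and 0.32) or either OSM library (0.37 each). Tab2, the list's most highly expressed gene, was at −0.04 with OSM (adjusted p 0.712).

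Of the partner and alternative receptors 5 of 10 were tested, and 3 rose with OSM and 0 passed with LIF. Il13ra2 encodes the decoy receptor that binds IL-13. It had 7 and 12 counts in control, 15 and 14 with IL6, 26 and 17 with LIF, and 63 and 82 with OSM. The OSM libraries stood well above the rest, though on few counts. Its change with OSM was 2.91 (SE 0.36, adjusted p 6.39e-05), a call held in all 14 settings. The level with OSM was above that with LIF by 1.76 (SE 0.31, adjusted p 0.00309). Il2rb, a chain of the IL-2 and IL-15 receptors, had 7 to 30 counts and rose with OSM by 1.76 (SE 0.40, adjusted p 0.00626). Crlf2, the TSLP receptor, rose by 0.52 (SE 0.15, adjusted p 0.0278). The Il2rb call was lost without control replicate 2 (1.59) or OSM replicate 2 (1.65), with adjusted p 0.00238 to 0.0564 over its settings. The Crlf2 call was lost without either control (0.54 and 0.51) or either OSM library (0.46 and 0.59), with adjusted p 0.0129 to 0.184.

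The list of IL-4 and IL-13 signal transduction held 12 genes, all tested, of which 5 rose with OSM and 2 with LIF. Jak2 went from 33.1 ± 2.59 CPM in control to 59.0 ± 2.67 with OSM (SD, n = 2). It rose by 0.83 with OSM (SE 0.08, adjusted p 4.07e-06) and by 0.65 with LIF (adjusted p 0.000249), in all 14 settings. Jak3, the kinase that binds the common gamma chain, rose by 0.79 with OSM (SE 0.12, adjusted p 0.000334) and by 0.56 with LIF (adjusted p 0.0115), and 7.55% of its exon bases overlap Insl3 on the same strand. The LIF call of Jak3 was lost without control replicate 1 (0.48) or LIF replicate 2 (0.42). Stat6, the transcription factor of both receptors, rose with OSM by 0.40 (SE 0.11, adjusted p 0.0273), a call lost without control replicate 2 (0.23), OSM replicate 1 (0.39) or OSM replicate 2 (0.42) (adjusted p 5.99e-05 to 0.160), and was at 0.22 with LIF (adjusted p 0.327). Tyk2 rose with OSM by 0.39 (adjusted p 0.00924), lost without OSM replicate 1 (0.34), and Jak1 by 0.27 (adjusted p 0.004).

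Genes that IL-4 or IL-13 induces in other cells moved in both directions. Of 17 listed, 7 were tested. With OSM 3 rose and 1 fell, and with LIF 3 rose and 1 fell. Postn, a matrix gene and a common marker of IL-13 action in airway, went from 16.6 ± 0.925 CPM in control (SD, n = 2) to 9.24 with LIF and 5.06 with OSM. Its change was −1.72 with OSM (SE 0.13, adjusted p 9.3e-07) and −0.85 with LIF (adjusted p 0.00117). Egr2, a transcription factor gene, rose by 1.43 with OSM (SE 0.15, adjusted p 2.32e-05) and exceeded LIF by 1.06 (adjusted p 0.000636). Mrc1, a mannose receptor of macrophages, rose by 0.68 with OSM (adjusted p 0.0145) and by 0.81 with LIF (adjusted p 0.0120). Its OSM call was lost without control replicate 2 (0.52) or either OSM library (0.62 and 0.75), and its LIF call without control replicate 2 (0.65) or either LIF library (0.76 and 0.86). Nfil3 rose by 0.20 with OSM (adjusted p 0.0435), a call lost in 8 of 14 settings, 6 of them the removal of any 1 control, LIF or OSM library (0.16 to 0.24). With LIF it rose by 0.35 (adjusted p 0.00408), lost without LIF replicate 1 (0.32). Tgm2 rose by 0.75 with LIF (adjusted p 0.0231), lost without either control (0.68 and 0.82) or either LIF library (0.77 and 0.73). It was at 0.37 with OSM (adjusted p 0.146) and overlaps other genes over 21.8% of its exon bases on the opposite strand.

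Of genes that IL-1 or IL-33 induces in other cells 12 of 17 were tested, and 4 rose with OSM, 2 with LIF and 0 fell. The chemokine gene Cxcl1 rose by 1.08 with OSM (SE 0.20, adjusted p 0.00356), held in all 14 settings, and by 0.999 with LIF (adjusted p 0.0135), lost without control replicate 2 (0.78) or either LIF library (1.04 and 0.95). Zc3h12a, which encodes an RNase that degrades inflammatory transcripts, rose by 0.43 with OSM (adjusted p 0.00476) and by 0.44 with LIF (adjusted p 0.00980). The first call was lost without OSM replicate 1 (0.38) and the second without either LIF library (0.48 and 0.40). The acute-phase gene Saa3 rose with OSM by 2.05 (SE 0.58, adjusted p 0.0225) on 1 to 19 counts, and Ccl7 by 0.96 (adjusted p 0.0488). The Saa3 call was lost without either control (2.47 and 1.73) or either OSM library (1.86 and 2.23), with adjusted p 0.0142 to 0.158. The Ccl7 call was lost in 9 settings (0.0379 to 0.281), among them the removal of control replicate 1 (0.67), either LIF library (0.96 each) or either OSM library (0.95 and 0.98). Tnfaip3, another NF-kB target, was at −0.15 with OSM (adjusted p 0.199).

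**Figure D4:**
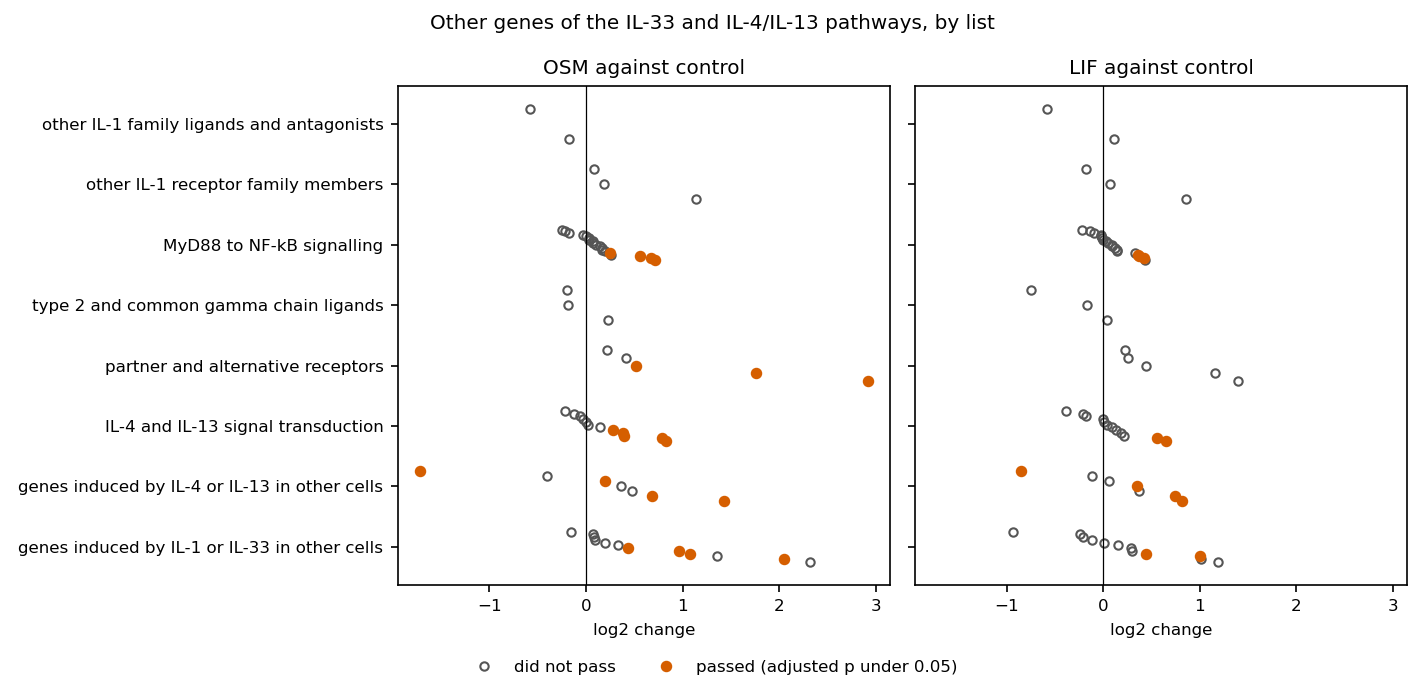
Fitted log2 change (x axis) of the 63 tested pathway genes, grouped by list on the y axis, for OSM (left) and LIF (right) against control, where each point is 1 gene and filled points passed. With OSM 19 filled points lie above 0 and 1, Postn at −1.72, below, and with LIF 10 lie above and 1 below.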

How the data were processed

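The authors deposited 1 table of raw counts by gene for each of 8 libraries, made from TruSeq stranded mRNA libraries, per the labels' protocols. Trim Galore 0.6.5, STAR 2.7.3a, HTSeq 0.11.1 and the build GRCm39 are named in the submitters' processing notes. The strand setting of the counting is not given in the sources used here. Summary lines for unassigned reads (11.7% to 12.7%) entered neither the library sizes nor the fits.

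Symbols came from a table of gene identifiers and names. Of the 102 pathway symbols 100 matched. Genes passing filterByExpr at a minimum count of 10 (15603) were fitted with edgeR 4.0.16 in R 4.3.3 (TMM scaling, robust quasi-likelihood, 4 group means, 4 residual degrees of freedom), and p-values were adjusted by Benjamini-Hochberg over all genes. Calls required an adjusted p under 0.05. The fit was tested on simulated data in which all genes and groups had the same spread, so unequal spread between groups was not covered. CPM are TMM-scaled, given as mean ± SD. Log2 CPM for profile likeness used a prior count of 2. Lengths and overlaps are from GENCODE M21, whose build differs from that of the counts, so gene coordinates other than the RefSeq promoter windows are not given.

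The 7 genes, the pathway lists and the marker lists were chosen with earlier results of these data known. Named genes follow a rule: in each list, up to 5 called with OSM or LIF by size of the OSM change, plus the most highly expressed tested gene, and for each of the 7 genes spanning at least 1 on the log2 scale the 3 most similar protein-coding genes averaging 100 counts or more. Ligands at or near 0, and genes at 0 that are named beside a result, were named after their values were seen.
Alternatives were RLE scaling, library totals only, the DESeq2 1.42.0 Wald test, no filter on low counts, fits of only the groups compared, a replicate block, each library left out, a 2-fold requirement and the longest transcript as length.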

Additional observations from a re-analysis of the deposited data

How the results depend on the processing

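Counting error limits genes with few reads, such as Il1rl1 with at most 23 counts. Over all alternatives, 538 values of the 7 genes and 696 of the named pathway genes kept direction and side of the threshold. Of the 7 genes' values 20 lost a call, 11 gained one and 12 turned sign, and of the pathway genes' 66, 12 and 6 did. The changes of OSM and LIF against control for Il33, Il4ra and Il13ra1, and of OSM for Il2rg, kept direction and call in all 14 alternatives. The cause of the changes below was not tested.

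Over all genes, IL6 against control gave 19 calls with DESeq2, 97 without a filter, 9 with the replicate block and 0 to 221 with 1 library left out. Calls over all genes with 1 library left out ran from 1622 to 4067 for OSM against control (3335 in the fit of all libraries), 316 to 1688 for LIF against control (1195), 437 to 1764 for OSM against LIF (1256), 1105 to 2713 for OSM against IL6 (2426) and 82 to 739 for LIF against IL6 (434). Without a filter LIF against IL6 gave 985, and a fit of those groups alone gave 2928 for OSM against LIF. Of the 7 genes, those called with IL6 against control were 2, not 0, with DESeq2, without a filter on low counts and with the replicate block, and 0 to 2 with 1 library left out. For OSM against LIF the count was 2 to 5 with 1 library left out 6 in a fit of those groups alone, with Il1rap, and 1 with the 2-fold requirement, which gave 0 for LIF against IL6. For OSM against IL6 it was 4 to 5 with 1 library left out. Pathway genes called with OSM were 11 to 25 with 1 library left out and 6 with the 2-fold requirement. With LIF they were 3 to 13 and 0. With IL6 they were 3 without a filter and 0 to 6 with 1 library left out. With the longest transcript as length, control levels were 3.75 for Il33, 4.01 for Il1rap, 4.03 for Il1r1, 12.96 for Il4ra and 2.19 CPM per kilobase for Il2rg, so Il1rap came above Il33.

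Signs that turned belonged to changes that had not passed. Il1rl1 with IL6 was at 0.029 with the replicate block and −0.48 to 0.68 with 1 library left out. With 1 library left out, Il1rl1 was at −0.44 to 0.67 for OSM against LIF, and Il1r1 at −0.069 to 0.066 with OSM. Il1rap was at −0.10 to 0.077 with LIF, −0.13 to 0.15 with IL6 and −0.17 to 0.11 for LIF against IL6. Il18rap was at −0.053 to 0.25 with OSM and −0.071 to 0.23 with LIF, Tyk2 at −0.10 to 0.10 with LIF and Saa3 at −0.41 to 0.56 with LIF. The replicate numbers are not said to pair libraries, and replicate differences correlated at 0.0071 to 0.181 between groups. Over all genes the block raised the calls of LIF against IL6 from 434 to 826. Of the 7 genes, it raised the calls of IL6 against control from 0 to 2. The block moved no other count of the 7 genes or the pathway genes by over 1.5 times.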

Other observations

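Il18rap, the accessory chain of the IL-18 receptor, had 351 to 495 counts per library while Il18r1, the chain that binds IL-18, had 0 counts in all 8. Il18rap did not pass with OSM (log2 change 0.09, adjusted p 0.683 in edgeR's quasi-likelihood test). The pair was singled out after its values were seen.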
